A study of Mus musculus with 3 samples.

Results

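Chaperones and cochaperones were followed across 3 Affymetrix mouse 430 2.0 arrays of RNA from sorted CD8+ T cells. The set was defined by gene symbol and chosen with earlier results of these data known. It holds the HSP90, HSP70 and HSP110 families, the mitochondrial chaperonin pair, the small heat shock proteins and the J-domain (DNAJ) proteins. The subunits of the cytosolic CCT chaperonin, the BAG cochaperones and the FKBP prolyl isomerases complete it. Probe sets annotated with exactly 1 symbol gave 95 such genes of 18193 on the array, read by 231 probe sets. The largest role group was the J-domain proteins with 42 genes, followed by 14 HSP70 and HSP110 genes, 12 FKBP, 9 CCT, 8 small heat shock protein, 6 BAG, 2 HSP90 and 2 mitochondrial chaperonin genes. Hsp90ab1, Fkbp6, Fkbp10 and Dnajc19 had no such probe set and were not analysed here.

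The study asked how T cells without the type II TGF-β receptor differ when they carry NK1.1, a surface receptor of natural killer (NK) cells. The KO groups were CD8+ T cells, sorted as NK1.1+ or as NK1.1−, of mice with the genotype Tgfbr2fl/fl x CD4-Cre at 15 to 17 days of age, in which Cre recombinase under the Cd4 promoter deletes the floxed gene in T cells that have passed through the stage expressing Cd4. The control group was CD8+ T cells of Tgfbr2fl/wt x CD4-Cre littermates, which also carry Cre and 1 floxed copy, so that no group was free of Cre. The control cells are labelled NK1.1− in the title and called total CD8+ in a passage of the design text, so their gate is not settled. Each group had 1 array, and the labels do not say how many mice stood behind an array. No difference below has a replicate check, and no test was made.

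Chaperones bind unfolded or partly folded proteins and release them through cycles of ATP hydrolysis. J-domain proteins deliver clients to HSP70 and stimulate its ATPase, BAG proteins and the HSP110 family release its ADP, HSP90 matures kinases and steroid receptors, and the ring-shaped chaperonins CCT and HSP60 enclose a protein while it folds. FKBPs turn proline bonds, and Fkbp1a is the cellular target of FK506 and rapamycin and a partner of the type I TGF-β receptor. Activated T cells raise protein synthesis as they grow and divide, and folding of the new protein falls to these machines.

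Values are linear intensities, and a gene's value is that of its brightest probe set. A value was taken as measured from 9.57 upwards, the 95th percentile of probe sets for receptors and structural genes of other tissues, and anything dimmer was set to that level before arrays were compared. The words "at least" mark differences bounded in this way. Calls of higher or lower needed a difference of 2-fold or more between 2 arrays. On the NK1.1+ KO, NK1.1− KO and control arrays, 68, 72 and 69 of the 95 genes were measured, beside 10130, 9738 and 9611 of all genes. On at least 1 array 75 were measured. The remaining 20 were below the level on all 3: Hspa12b, Hspa1a and Hspa1l of the HSP70 family, Hspb1, Hspb2, Hspb3, Hspb7, Hspb8 and Hspb9 of the small heat shock proteins, the J-domain genes Dnajb3, Dnajb7, Dnajb8, Dnajc22 and Dnajc28, and Cct6b, Bag2, Fkbp11, Fkbp14, Fkbp1b and Fkbp9. The small heat shock proteins were thus the least measured group, with 2 of 8, against 37 of 42 J-domain genes.

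The targeted gene and the cell type were checked first. Tgfbr2 was 1808 in NK1.1+ KO cells, 1271 in NK1.1− KO cells and 2634 in control cells on its brightest probe set, so signal was present in both KO arrays; whether that probe set lies in the deleted part is not known here. Its other 2 probe sets were between 5.38 and 11.2. All 12 CD8 T cell markers on the array were measured on each array, with summed values of 9520, 17247 and 21513 in the same order. The NK1.1+ KO array stood apart in other lists. Monocyte and macrophage markers summed to 11375 there against 1043 and 389, with 11, 8 and 7 of 14 measured in the same order. Csf1r alone gave 7666 of the first and Ccr2 815 of the second. Cd14, Itgam and C1qa were below the level on all arrays. NK cell markers summed to 14984 against 7655 and 4339, with 6, 5 and 5 of 7 measured, but Klrd1 alone gave 11874, 5403 and 3687. Ncr1 was below the level on all arrays, and Eomes was highest in NK1.1− KO cells, at 734, 2085 and 593 in the same order. Plasma cell markers summed to 4443 against 504 and 221, but Jchain gave 2282 and Igk 1609 of the first. Of these 8 markers 6, 5 and 6 were measured, and Tnfrsf17 and Derl3 were below the level on all arrays. Mzb1 and Ell2 were also highest on the NK1.1+ KO array, whereas Irf4 went the other way, at 40.1 against 205 and 97.6. Sdc1 was 10.1, 7.73 and 10.5. B cell markers summed to 11094 against 1276 and 2317, but Ighm alone gave 10744 of the first; 5, 5 and 7 of 9 were measured on the NK1.1+ KO, NK1.1− KO and control arrays, Cd79a and Pax5 were below the level on all, and Ms4a1 was 108, 76.7 and 212. It also had an Actb 3′ to 5′ probe set ratio of 81.9, against 12.3 and 6.02, and hybridisation controls with a geometric mean of 4498, against 1786 and 1905, while its Gapdh 3′ to 5′ ratio of 10.8 was below the 26.7 and 17.8 of the others. The proliferation markers summed to 6883, 31553 and 11031, highest in NK1.1− KO cells. The part of these differences in the chaperone results was not tested. In sorted populations measured in bulk, fewer cells of a type and less RNA per cell cannot be told apart.

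Across the set, the NK1.1− KO and control arrays were close and the NK1.1+ KO array was lower than both. Between NK1.1− KO and control cells, 4 of 73 measured members were higher, 5.48%, beside 8.04% of all measured genes, and 5 were lower, 6.85%, beside 5.54%. Those higher were Bag3, Dnajc15, Dnajc25 and Fkbp5, and those lower were Dnajb14, Dnajb2, Fkbp4, Hspa1b and Hspb11. The median log2 difference of the members was 0.08, beside 0.01 for all genes. Both shares lie near the background.

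For NK1.1+ KO cells against control, 23 of 72 measured members were lower, 31.9%, beside 22.8% of all measured genes, and 3 were higher, 4.17%, beside 9.83%. Those lower came from every role group, with 6 of the 8 measured CCT genes, both mitochondrial chaperonin genes, 7 of 37 J-domain genes, 3 of 7 FKBPs, 2 of 10 HSP70 and HSP110 genes, and Hsp90b1, Bag5 and Hspb11. The 3 higher were Dnajc15, Dnajc6 and Hspa4l. The members' median log2 difference was -0.38, beside -0.17 for all genes. Each difference was also centred on the median of genes measured on both arrays, which lay at -0.25. Of the 72 measured members 15 were then lower and 5 higher, beside 17.2% and 13.7% of all genes. The members' median became -0.13 and that of all genes 0.09. Centring subtracts the same constant from every gene, so the distance between these medians could not change. Quantile normalization gave 17 lower and 5 higher of 74 measured members, beside 18.4% and 12.6% of all genes.

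In NK1.1+ against NK1.1− KO cells, 22 of 75 measured members were lower, 29.3%, beside 21.2% of all genes, and 4 were higher, 5.33%, beside 6.53%. This comparison shares the NK1.1+ array with the preceding one and is not independent of it. The median was -0.51, beside -0.24 for all genes. Centring, here on -0.31, left 14 of the 75 members lower and 5 higher, beside 13.7% and 10.9% of all genes. It moved the members' median to -0.19 and that of all genes to 0.07, with the same distance between them as before. Quantile normalization gave 17 and 5 of 75, beside 16% and 9.1% of all genes.

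**Figure D1:**
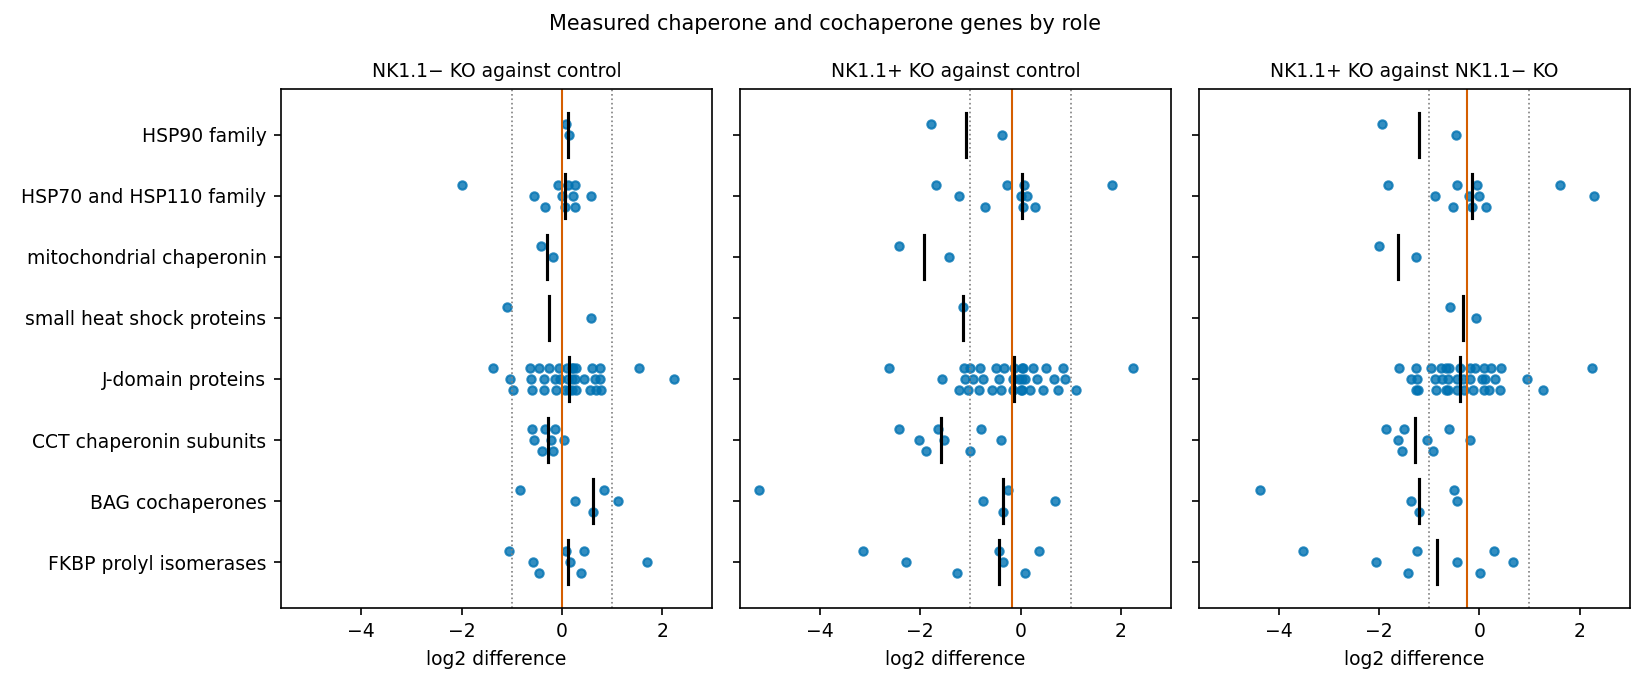
Log2 difference of each measured chaperone or cochaperone gene, grouped by role, for the 3 comparisons between single arrays; each point is 1 gene, the dotted lines mark 2-fold, black bars are role medians and the orange line is the median of all measured genes. In NK1.1− KO against control only 4 of 73 points lie to the right of the dotted lines and 5 to the left, whereas in NK1.1+ KO against control the CCT and mitochondrial chaperonin points all lie below 0.

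CCT is a double ring of 8 different subunits that folds actin, tubulin and many other proteins. All 8 somatic subunits were measured on each array, and Cct6b, a testis form, on none. In NK1.1+ KO cells against control all 8 were below 0 on the log2 scale, from -2.43 to -0.39 with a median of -1.59, and 6 of 8, 75%, were called lower, beside the 22.8% of all genes. Against the same control, 7 of the 8 were below 0 in NK1.1− KO cells but all lay within -0.59 to 0.04, with a median of -0.28, and none was called. In NK1.1+ against NK1.1− KO cells 5 of 8 were called lower, beside 21.2% of all genes, with a median of -1.28 beside -0.24. Quantile normalization gave 5 of 9 CCT genes lower in NK1.1+ KO cells against control, and centring 5 of 8, beside 18.4% and 17.2% of all genes. The 9 include Cct6b, which passed the level after quantile normalization. The medians of these 9 and 8 genes were -1.35 and -1.33, beside -0.06 and 0.09 for all genes.

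Cct8 had the largest difference of the ring, with 381 in NK1.1+ KO cells, 1393 in NK1.1− KO cells and 2056 in control cells. The NK1.1+ KO value was 5.40-fold below control, and the NK1.1− KO value lay between them, 1.48-fold below. Cct7 was 813, 2510 and 3291 in the same order, 4.05-fold lower in NK1.1+ KO cells than in control, and its second measured probe set gave a log2 difference of -2.36 beside -2.02. Cct5 was 846, 2475 and 3143, a difference of 3.72-fold. In all 3 of these genes the NK1.1− KO array was closer to the control array than to the NK1.1+ KO array.

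Tcp1, the founding subunit of the ring, was 820 in NK1.1+ KO cells, 2332 in NK1.1− KO cells and 2577 in control cells, 3.14-fold below control in the first. Cct3 was 1381, 2635 and 3978, 2.88-fold below control. Cct6a was 2425, 5018 and 4895, only just past the threshold at 2.02-fold, although its second probe set gave a log2 difference of -1.74. The other subunits were not called. Cct2 was 3650, 5550 and 6281, a log2 difference of -0.78 between NK1.1+ KO and control, and Cct4 was 3320, 3772 and 4358, a difference of -0.39.

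Not every probe set of a subunit gave the same answer. Of the 5 Cct3 probe sets measured in NK1.1+ KO or control cells, 4 were lower in NK1.1+ KO cells, down to a log2 difference of at least 5.48 below control on one (9.25 against 427), and the fifth, a dim one, gave 18.1 against 17.3. Cct2 ranged from -2.30 to -0.31 over 3 probe sets and Cct4 from -1.22 to -0.03 over 5. Each of these spreads exceeds the difference between neighbouring subunits in the order given above. Cct5, Cct8 and Tcp1 each had 1 measured probe set, so their places in that order had no further reading.

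The mitochondrial chaperonin is a folding chamber of HSP60 (Hspd1) capped by HSP10 (Hspe1), which folds proteins imported into the matrix. Hspd1 was 427 in NK1.1+ KO cells, 1707 in NK1.1− KO cells and 2278 in control cells. That is 5.33-fold below control in NK1.1+ KO cells and 1.33-fold below in NK1.1− KO cells. Hspe1 was 434, 1036 and 1167, 2.69-fold below control in NK1.1+ KO cells. Both genes had the same order of arrays as Cct8, lowest in NK1.1+ KO cells and highest in control cells. Hspd1 was read by 1 measured probe set, and the second probe set of Hspe1, at 8.09, 8.55 and 14.1, was below the level on both KO arrays, at least 1.48-fold below control.

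**Figure D2:**
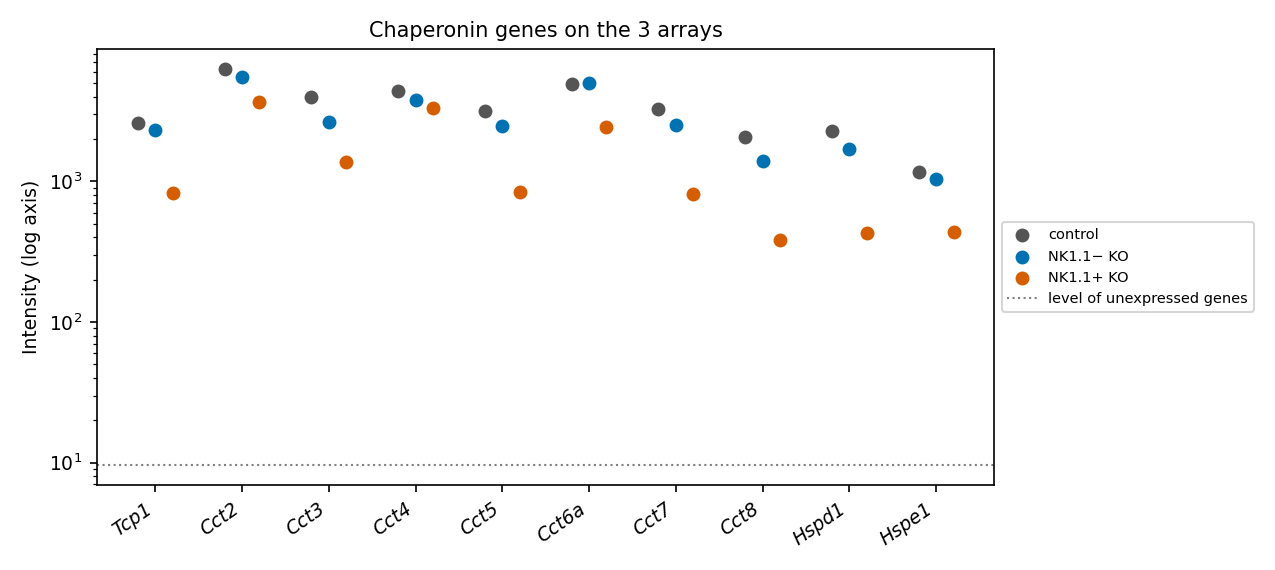
Intensity (log axis) of the CCT subunits and of Hspd1 and Hspe1 on the 3 arrays, 1 point per array and gene; the dotted line is the level of 9.57. Each gene is lowest on the NK1.1+ KO array, from 1.31-fold below control for Cct4 to 5.40-fold for Cct8, while the other 2 arrays lie within 1.51-fold of each other.

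Hspd1 and Hspe1 lie head to head on mouse chromosome 1 and share the DNA between their starts, so their common upstream sequence is shown. In the RefSeq annotation of GRCm38.p6, Hspe1 starts at 55088148 on the plus strand and Hspd1 at 55087932 or 55088243 on the minus strand. The stretch chr1:55088053-55088082, plus strand, 95 to 66 bases before the Hspe1 start, is given with capitals for the heat shock element, the binding site of heat shock factors, here searched as 3 alternating units (GAA, 2 bases, TTC, 2 bases, GAA, or its complement).
Hspe1 and Hspd1: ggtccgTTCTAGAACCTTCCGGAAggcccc
The capitals hold 2 such matches that overlap by 8 bases. Within 250 bases before the start, 4 of 105 member promoters, 3.81%, held this 3-unit form, beside 0.466% of all 32851 promoters in the table, and their genes were Hspd1, Hspe1 and Dnajb6. These are not 4 separate elements. Hspd1 and Hspe1 were counted for the same bases, and Dnajb6 was counted at 2 start sites, whose matches may also be the same bases. A match is a run of letters and not evidence of binding.

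The HSP90 family had 2 genes with values. Hsp90aa1, the inducible cytosolic form, was 2574 in NK1.1+ KO cells, 3532 in NK1.1− KO cells and 3337 in control cells, with a log2 difference of -0.37 from control in NK1.1+ KO cells and 0.08 in NK1.1− KO cells. Neither was called, and its 3 probe sets ran from -1.15 to -0.22 in NK1.1+ KO cells against control. Hsp90b1 (GRP94), the form in the endoplasmic reticulum (ER) that folds integrins and Toll-like receptors, was 319, 1220 and 1098. It was 3.44-fold below control in NK1.1+ KO cells and 3.83-fold below NK1.1− KO cells, and its dimmer probe set gave log2 differences of -0.43 and -1.12.

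The HSP70 family was mixed. Hspa8 (HSC70), the constitutive cytosolic form, was 12421 in NK1.1+ KO cells, 12912 in NK1.1− KO cells and 12313 in control cells, with log2 differences from control of 0.01 and 0.07. That flat pattern belonged to the brightest probe set alone. The next, 1647, 5245 and 6945, was -2.08 from control in NK1.1+ KO cells, and the other 2 measured probe sets gave -1.49 and -1.14. Hspa5 (BiP), the HSP70 of the ER, was 3422, 4905 and 4104, with -0.26 and 0.26 from control. Its other probe sets gave -1.62 and 0.75 in NK1.1+ KO cells against control. Hspa9 (mortalin), the HSP70 that pulls proteins into the mitochondrial matrix, was 915, 1013 and 1488, at -0.70 and -0.55 from control on the log2 scale and called in neither. Its second probe set was 151, 396 and 1091, at -2.85 and -1.46 from control.

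Hspa1b, the classical heat-inducible HSP70, was the member with the largest decrease in NK1.1− KO cells. It was 72.4 in NK1.1+ KO cells, 14.8 in NK1.1− KO cells and 59.1 in control cells. The NK1.1− KO array was 3.99-fold below control and 4.89-fold below the NK1.1+ KO array. In NK1.1− KO cells against control 2 of its probe sets stood at -2.00, and the third, below the level at 9.42, was at least 3.83-fold lower, and in NK1.1+ KO cells they gave 0.29, -0.91 and -1.43, so that a decrease from control held across probe sets in NK1.1− KO cells only. Hspa1a, a near-identical neighbour, was read at 6.83, 6.63 and 6.56, below the level, and because the coding sequences of the pair are so alike their signals may not be separate. The Hspa1b promoter is shown because it holds the shorter core of the heat shock element, GAANNTTC, which reads the same on both strands and lies within the 3-unit form. It is chr17:34959239-34959388, minus strand, GRCm38.p6, 150 to 1 bases before the start, with the core in capitals.
Hspa1b: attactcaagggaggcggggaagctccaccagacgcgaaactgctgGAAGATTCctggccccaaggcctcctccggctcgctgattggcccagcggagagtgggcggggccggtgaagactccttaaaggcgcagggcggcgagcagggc
The core stood in 14 of 105 member promoters, 13.3%, beside 6.69% of all promoters. Here too Hspd1 and Hspe1 were counted for the same bases and Dnajb6 at 2 start sites. The 13 genes with it were Cct2, Dnaja1, Dnaja4, Dnajb6, Dnajc27, Fkbp4, Hspa1a, Hspa1b, Hspb1, Hspb3, Hspb6, Hspd1 and Hspe1. On their brightest probe sets those genes did not share a direction in NK1.1− KO cells against control. Hspa1b stood at -2.00 and Dnaja1 at -0.64 on the log2 scale, whereas Dnaja4 stood at 0.76 and Dnajb6 at 0.20. The signs of Dnaja1 and Dnajb6 depended on the probe set. Those of Dnaja1 ran from -0.64 to 0.23 and those of Dnajb6 from -0.79 to 0.42, while those of Dnaja4 ran from 0.11 to 0.76.

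Among the HSP110 genes, the nucleotide exchange partners of HSP70, Hsph1 was 736 in NK1.1+ KO cells, 853 in NK1.1− KO cells and 711 in control cells and was called in no comparison, although its dimmer probe set gave -1.99 in NK1.1+ KO cells against control. Hspa4 was 1502, 2788 and 3496, 2.33-fold below control in NK1.1+ KO cells. Hspa4l went the other way, with 123, 40.4 and 34.7, 3.54-fold above control in NK1.1+ KO cells. Neither result held over its probe sets: those of Hspa4 ran from -1.22 to 1.01 and those of Hspa4l from -0.91 to 1.82 in NK1.1+ KO cells against control. Hspa14, an HSP70 that works at the ribosome, was 151, 530 and 487, 3.23-fold below control in NK1.1+ KO cells, with 2 dimmer probe sets at -0.37 and 0.36. Hspa13, a microsomal relative, was 234, 320 and 213 and was not called. Hspa12a and Hspa2 reached no more than 10.6 and 9.61 on any array.

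The ER members can be set side by side, since 3 of them hold the ER stress element in their promoters, the sequence read by ATF6 and searched as CCAAT, 9 bases, CCACG, or its complement. They were Hspa5, Hsp90b1 and Dnajc3, which is 3 of 105 member promoters, 2.86%, beside 0.113% of all promoters. Their sequences before the start are shown with the element in capitals, from GRCm38.p6, for Hspa5 at chr2:34771970-34772089, plus strand (120 bases), Hsp90b1 at chr10:86705445-86705674, minus strand (230 bases), and Dnajc3 at chr14:118937802-118937931, plus strand (130 bases). Hsp90b1 holds the element once in each direction.
Hspa5: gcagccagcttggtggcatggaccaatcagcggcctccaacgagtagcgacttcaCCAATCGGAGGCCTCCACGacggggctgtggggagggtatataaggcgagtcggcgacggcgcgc
Hsp90b1: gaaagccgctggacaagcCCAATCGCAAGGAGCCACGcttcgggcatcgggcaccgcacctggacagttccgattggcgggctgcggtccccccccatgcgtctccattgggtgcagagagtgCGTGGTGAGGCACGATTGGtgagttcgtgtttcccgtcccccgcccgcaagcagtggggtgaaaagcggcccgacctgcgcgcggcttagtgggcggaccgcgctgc
Dnajc3: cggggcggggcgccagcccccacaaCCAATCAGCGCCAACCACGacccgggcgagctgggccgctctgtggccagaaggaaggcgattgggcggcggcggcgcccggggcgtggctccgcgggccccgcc
On their brightest probe sets the 3 genes did not share a direction in NK1.1+ KO cells against control. Hsp90b1 was called lower at -1.78 and Hspa5 stood at -0.26. Dnajc3 (P58IPK), a J-domain protein that also restrains the kinase PERK, stood at 0.50, with 249, 281 and 176 on the 3 arrays. Of its 4 measured probe sets only this one lay above 0, and the lowest stood at -1.15, a bound set by the level. The opposite direction of Dnajc3 thus rested on the probe set used.

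Of the other ER J-domain proteins, Dnajb9 (ERdj4), which helps dispose of misfolded proteins and holds the stress sensor IRE1 in check, was 1008 in NK1.1+ KO cells, 521 in NK1.1− KO cells and 561 in control cells. It was the one ER member whose NK1.1+ KO value stood well above both others without being called, at log2 differences of 0.85 and 0.95. Dnajb11 (ERdj3), a BiP partner, was 210, 411 and 376, below control by 0.84 in NK1.1+ KO cells. Dnajc10 (ERdj5), an ER reductase, was 626, 535 and 642 on its brightest probe set, but its 3 probe sets ran from -3.38 to -0.04 in NK1.1+ KO cells against control. Dnajc1, an ER membrane J protein that also binds ribosomes, was 562, 530 and 337 and was not called.

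Dnajc15 (MCJ), a J-domain protein of the mitochondrial inner membrane that restrains respiratory complex I, was the only member higher in both KO arrays. It was 583 in NK1.1+ KO cells, 792 in NK1.1− KO cells and 272 in control cells. The KO values were 2.14-fold and 2.91-fold above control, and the 2 KO arrays differed by -0.44 on the log2 scale. It was at least 2-fold higher in both under all 8 alternatives that kept the threshold, and it was read by 1 probe set. With 1 probe set far above every level used, only the offset, quantile normalization and centring could have changed these values. Since both KO arrays were set against the same control array, the pair of differences is not independent.

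The remaining J-domain genes differed in direction. Dnajb2 (HSJ1), which links HSP70 clients to the proteasome, was 9.41, 22.7 and 58.7 in NK1.1+ KO, NK1.1− KO and control cells, 2.59-fold below control in NK1.1− KO cells and at least 6.13-fold below in NK1.1+ KO cells. Dnajc7 (TPR2), a cochaperone of HSP90 and HSP70, was 979, 1481 and 2915, 2.98-fold below control in NK1.1+ KO cells and, at -0.98 on the log2 scale, just short of the threshold in NK1.1− KO cells. Dnajc25 was 17.6, 45.4 and 8.48, at least 4.74-fold above control in NK1.1− KO cells. Dnajb14, a J protein of the ER membrane, was 50.3, 20.9 and 42.6, 2.03-fold below control in NK1.1− KO cells only. Dnajb2 and Dnajc7 thus stood in the same order, lowest in NK1.1+ KO and highest in control cells, whereas Dnajc25 was highest and Dnajb14 lowest in NK1.1− KO cells.

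Dnajc6 (auxilin), which recruits HSC70 to uncoat clathrin vesicles, was 45.2 in NK1.1+ KO cells and below the level in the others, at 7.80 and 6.23. It was at least 4.72-fold above control, but its 4 probe sets ran from -1.18 to 2.24, both of them bounds set by the level. Lower in NK1.1+ KO cells than in control were also Dnajc11, a mitochondrial protein of cristae (28.6, 44.3 and 67.2, 2.35-fold), Dnajc9, a histone cochaperone (390, 909 and 847, 2.17-fold), Dnaja2, a cytosolic HSP70 partner (1267, 2141 and 2747, 2.17-fold), Dnajc21, a factor of ribosome assembly (53.7, 128 and 110, 2.06-fold), and Dnajc18 (10.3, 31.3 and 20.7, 2.02-fold). In Dnaja2 and Dnajc21 some probe sets lay above 0. Dnajc24, a factor of diphthamide synthesis, was 19.5, 46.9 and 27.3 and was called lower only between the KO subsets, with its second probe set at 0.01.

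Several bright J-domain genes were not called. Dnajb1 (HSP40) was 3998 in NK1.1+ KO cells, 6356 in NK1.1− KO cells and 5248 in control cells, with log2 differences from control of -0.39 and 0.28. Dnaja1 was 1341, 1660 and 2593, below control by 0.95 and 0.64, and called in neither. Its probe sets ran from -0.95 to 0.54 in NK1.1+ KO cells and from -0.64 to 0.23 in NK1.1− KO cells. Dnajc5 (CSPα), which guards exocytosis, was 2414, 1823 and 1526, 0.66 above control in NK1.1+ KO cells. Its dimmer probe sets went both ways, with 304 against 420 in control on one and 27.1 against 16.1 on another. Dnajc8, a nuclear protein tied to splicing, was 3513, 3316 and 3459, but 424, 558 and 867 on its dimmer probe set. Over all 37 measured J-domain genes, 7 were called lower and 2 higher in NK1.1+ KO cells against control, 18.9% and 5.41%, both below the 22.8% and 9.83% of all genes, with a median of -0.13 that turned to 0.11 under quantile normalization and to 0.12 under centring. The medians of all genes were -0.17, -0.06 and 0.09 in the same order.

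**Figure D3:**
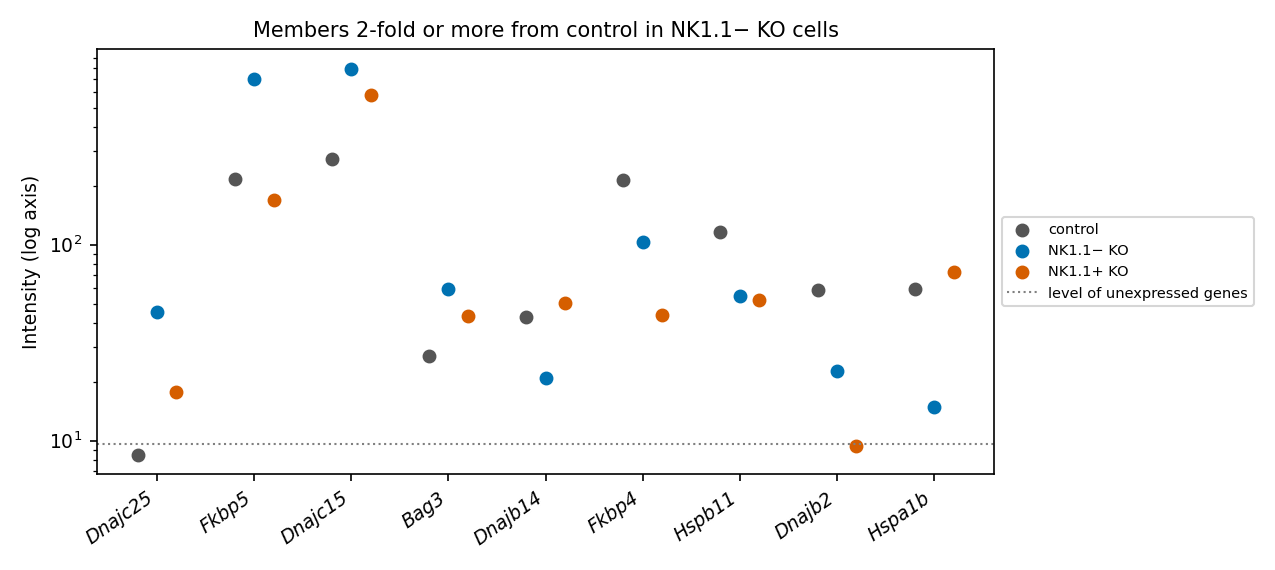
Intensity (log axis) on the 3 arrays of the 9 members called in NK1.1− KO against control cells, 1 point per array and gene; the dotted line is the level of 9.57. The genes called higher (Bag3, Dnajc15, Dnajc25, Fkbp5) peak on the NK1.1− KO array, and of the 5 called lower Hspa1b and Dnajb14 are lowest there.

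BAG cochaperones release nucleotide from HSP70 and steer its clients. Bag5 had the largest difference of any member, with 9.25 in NK1.1+ KO cells, 198 in NK1.1− KO cells and 354 in control cells. Its NK1.1+ KO value was below the level, and control was at least 37.0-fold and NK1.1− KO at least 20.7-fold above it. A single measured probe set carried this result. Bag3, a stress-inducible member that directs clients to autophagy, was 43.4, 59.2 and 27.1, 2.19-fold above control in NK1.1− KO cells, and Bag1, a partner of BCL2, was 205, 473 and 262, 1.80-fold above control there and 2.30-fold lower in NK1.1+ than in NK1.1− KO cells. Bag6, which handles membrane proteins that miss their target, was 40.4, 104 and 67.5, 2.58-fold lower in NK1.1+ than in NK1.1− KO cells. Bag4 was 111, 158 and 133, but its other measured probe set was 133, 103 and 55.9, 2.38-fold above control in NK1.1+ KO cells. Bag1, Bag3 and Bag6 were thus highest on the NK1.1− KO array, Bag5 was highest in control, and the Bag4 probe sets gave different orders.

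Fkbp5 (FKBP51), an HSP90 cochaperone that dampens the glucocorticoid receptor and is itself induced by glucocorticoids, was 169 in NK1.1+ KO cells, 701 in NK1.1− KO cells and 216 in control cells. It was 3.24-fold above control in NK1.1− KO cells and 4.15-fold lower in NK1.1+ than in NK1.1− KO cells. Its dimmer probe set, at 7.80, 20.0 and 13.9, had the same directions, 1.44-fold above control in NK1.1− KO cells and at least 2.09-fold lower in NK1.1+ than in NK1.1− KO cells. Fkbp4 (FKBP52), the paralog that promotes hormone receptor activity, was 43.7, 103 and 213, 2.07-fold below control in NK1.1− KO cells and 4.88-fold below in NK1.1+ KO cells. The pair thus differed from control in opposite directions in NK1.1− KO cells, while the second Fkbp4 probe set, at 67.8, 19.2 and 34.1, stood at 0.99 from control in NK1.1+ KO cells and at -0.83 in NK1.1− KO cells.

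Fkbp1a (FKBP12), the drug target and type I receptor partner, was 3378 in NK1.1+ KO cells, 2756 in NK1.1− KO cells and 2601 in control cells, with log2 differences from control of 0.38 and 0.08, called in neither, and 4 probe sets from -1.37 to 0.49 in NK1.1+ KO cells. Fkbp2, an FKBP of the ER, was 10.2, 118 and 89.7, 8.78-fold below control in NK1.1+ KO cells and 11.5-fold below NK1.1− KO cells, on its only probe set. Fkbp8 (FKBP38), which sits on the outer mitochondrial membrane, was 59.1, 158 and 142, 2.40-fold below control in NK1.1+ KO cells. Fkbp3, a nuclear FKBP, was 2294, 2269 and 3095, and Fkbp15 was 86.2, 54.2 and 80.7, called in no comparison. A dimmer Fkbp15 probe set was far higher in NK1.1+ KO cells, at 68.1, 15.1 and 15.6. Another was lowest there, at 61.0, 85.5 and 73.6. Fkbp7 was measured only in NK1.1− KO cells, at 13.0. No FKBP was called higher in NK1.1+ KO cells on its brightest probe set.

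Of the small heat shock proteins, Hspb11 was 52.2 in NK1.1+ KO cells, 54.6 in NK1.1− KO cells and 117 in control cells, lower than control in both KO arrays by 2.23-fold and 2.13-fold. Despite its symbol it is a subunit of the intraflagellar transport complex (IFT25), and its second probe set lay at 0.11 and 0.01. Hspb6 reached 14.3 in NK1.1− KO cells and was below the level in the others. No small heat shock protein therefore gave a difference that held over probe sets.

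How far the probe sets of 1 gene disagreed was measured over all genes with at least 2 of them measured on both arrays. For NK1.1− KO cells against control, 7 of 41 such members, 17.1%, had log2 differences spread by at least 1, beside 17.6% of 4105 genes. For NK1.1+ KO cells against control, the share was 29 of 40, 72.5%, beside 52.7% of 3898 genes, with a median spread of 1.44 beside 1.06. Between the KO subsets it was 24 of 40, 60%, beside 47.4%. The disagreement was therefore wide in both comparisons with NK1.1+ KO cells, whose array also had the highest Actb 3′ to 5′ ratio, and the part of that ratio here was not tested. Of the 23 members called lower in NK1.1+ KO cells against control, 11 had 1 measured probe set, and of the other 12 only Cct6a and Cct7 were 2-fold lower on every one.

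**Figure D4:**
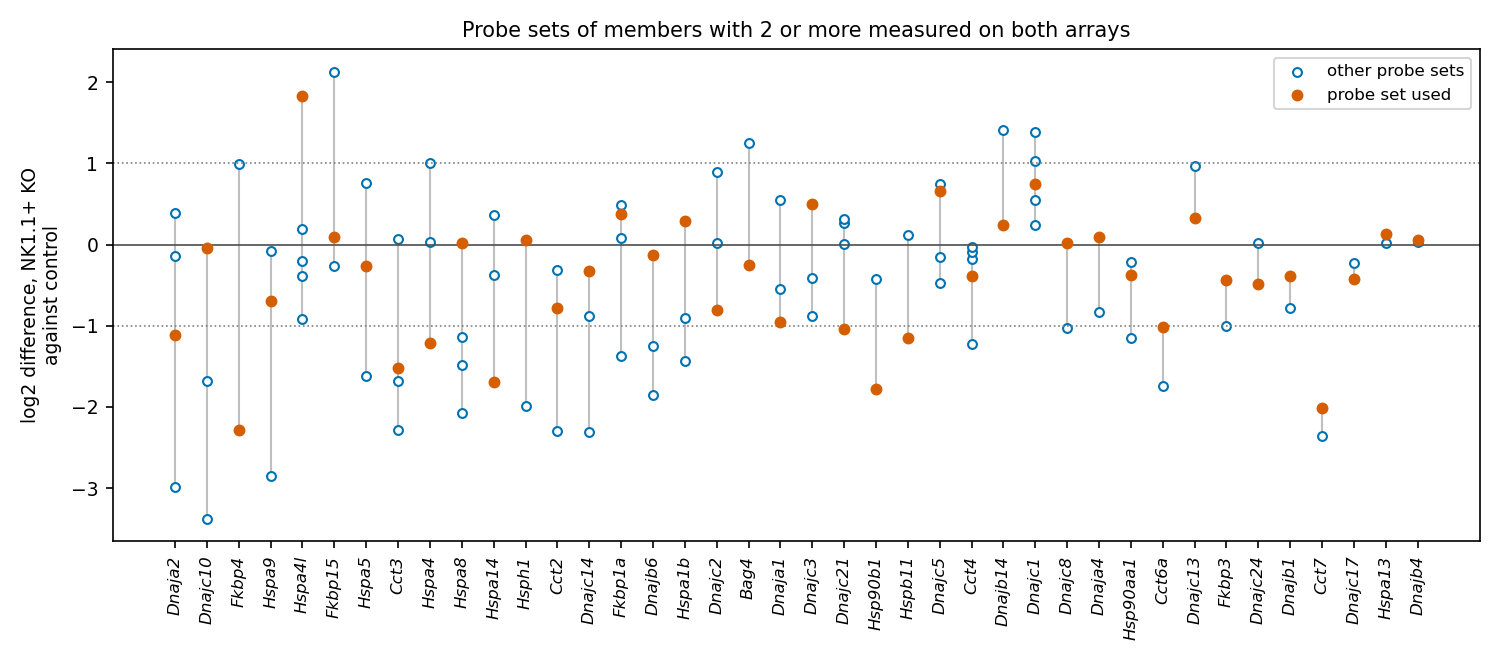
Log2 difference between NK1.1+ KO and control cells for the 40 members with at least 2 probe sets measured on both arrays; each point is a probe set, filled for the brightest one used, and the dotted lines mark 2-fold. Both Cct7 probe sets lie below -2, whereas those of Hspa8 run from -2.08 to 0.01 and those of Hspa4l from -0.91 to 1.82.

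Genes that work with the members were read from 6 further lists, which together had 73 of 76 genes measured. Of these, 2 were higher and 4 lower in NK1.1− KO cells than in control, 2.74% and 5.48%, beside 8.04% and 5.54% of all genes. The NK1.1+ KO cells had 27 lower than control and 3 higher, 37% and 4.11%, beside 22.8% and 9.83%, with a median of -0.50 beside -0.17 for all genes. Against NK1.1− KO cells 24 were lower and 4 higher, 32.9% and 5.48%, beside 21.2% and 6.53%, with a median of -0.65 beside -0.24 for all genes. Values of these lists are those of each gene's brightest probe set, and their other probe sets were not described.

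Of 17 HSP90 and HSP70 cochaperones outside the families, 9 were lower in NK1.1+ KO cells than in control, 52.9%, beside 22.8% of all genes. Their median was -1.09, beside -0.17 for all genes. Stip1 (HOP), which bridges HSP70 and HSP90, was 21.2 against 164 in control, 7.75-fold lower, and Ppp5c, an HSP90-bound phosphatase, was 10.5 against 138, 13.2-fold lower. The other 7 were Ahsa1, Cdc37, Sgta, Stub1, Sugt1, Trap1 and Ttc4. In NK1.1− KO cells only Ttc4 was called, lower at 41.4 against 97.5.

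Prefoldin hands unfolded actin and tubulin to CCT, and 4 of 11 prefoldin and helper genes were lower in NK1.1+ KO cells than in control, 36.4%, beside 22.8% of all genes, with a median of -0.72. Pfdn1 was 9.94 against 48.6, 4.89-fold lower, and Pfdn2 was 83.6 against 338, 4.04-fold lower. Pfdn2 was also lower in NK1.1− KO cells, at 158. Mitochondrial folding factors and proteases had 5 of 9 lower in NK1.1+ KO cells, 55.6%, and none called in NK1.1− KO cells; Clpp, a matrix protease subunit, was 15.9 against 117 and Lonp1, the LON protease, was 42.4 against 181. Cyclophilins, the other family of prolyl isomerases, had 5 of 8 lower in NK1.1+ KO cells, 62.5%, with Ppic at 81.0 against 350, and Ppic was the only one lower in NK1.1− KO cells, at 114.

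The ER folding and unfolded protein response list had 4 of 27 lower and 3 higher in NK1.1+ KO cells against control, 14.8% and 11.1%, beside 22.8% and 9.83% of all genes. The disulfide isomerases Pdia3 and Pdia6 were 83.3 against 710 and 129 against 822, 8.52-fold and 6.37-fold lower. The transcription factors Xbp1, at 1676 against 468, and Atf4, at 965 against 269, were 3.58-fold and 3.59-fold higher, and the sensor Ern1 (IRE1), at 922 against 291, was 3.17-fold higher; these 3 are named because they were the only ones higher, after their values were seen. Xbp1 is also abundant in plasma cells, whose summed markers were highest on the same array, mostly through Jchain and Igk. The part of those markers here was not tested. In NK1.1− KO cells Atf6 and Txndc5 were called higher, at 51.0 against 23.8 and 349 against 166, and Herpud1 lower, at 207 against 468. Of the heat shock factor list, 1 of 3 genes on the array was measured and none was called.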

How the data were processed

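The authors deposited 1 intensity value per probe set and array, on a linear scale between 2.60 and 55467.7. GCRMA 1.1.3, named in the submitters' processing notes, corrects background by probe sequence, normalizes and summarises probes; its options were not stated. Of 45037 probe sets, 34945 carry 1 gene symbol in GEO's platform annotation, and a gene took its probe set with the highest mean. The level of 9.57 (3.26 on the log2 scale) came from 142 probe sets for chemosensory receptors, keratin-associated proteins and lens crystallins except Cryab. With 1 array per group no test was made, and the small number of arrays limits precision.

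Described in full were, per comparison, all called members up to 15 per direction, the 2 largest differences per role, and fixed core members; of the other lists, the 2 largest differences. Further members complete their role groups, with their values known. Members and lists were chosen with earlier results of these data known. Promoters came from a RefSeq table (GRCm38.p6) that matched 81 of 95 members. Protein sequences were not used here. Python 3.11.15, pandas 2.3.3, numpy 2.4.6 and matplotlib 3.10.9 were used. The calling rule was tested on simulated data, with changes larger than 2-fold in genes well above the level. All probe sets of a gene were changed together there. That test does not cover changes close to 2-fold, values near the level or probe sets that disagree.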

Additional observations from a re-analysis of the deposited data

How the results depend on the processing

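No paired analysis was possible because each group had 1 array, and for the same reason no replicate could be left out. Of 10 alternatives, the level with Cryab counted was chosen after seeing the data. In NK1.1− KO against control cells the members called higher, 4 in the report, became 2 with the level at the 75th percentile, 2 with an offset of 32, 13 at 1.5-fold and 2 at 3-fold. Those lower, 5, became 2, 0, 11 and 1 in that order. Averaging each gene's probe sets gave 2 lower and moved the median to -0.031. In NK1.1+ KO against control cells those higher, 3, became 1 with that average, 5 with quantile normalization, 5 with centring and 8 at 1.5-fold, and those lower, 23, became 15 with centring and 11 at 3-fold. The members' median became -0.15 with quantile normalization and -0.13 with centring, beside -0.06 and 0.09 for all genes. Centring by construction leaves the distance between members and all genes unchanged. In NK1.1+ against NK1.1− KO cells those higher, 4, became 1 at the 75th percentile, 2 with the offset and 2 with the average, and those lower, 22, became 14 with centring, 35 at 1.5-fold and 9 at 3-fold. The members' median became -0.40, -0.32 and -0.19 with the offset, quantile normalization and centring, beside -0.16, -0.09 and 0.07 for all genes. Called members that changed sign did so with another choice of probe sets. The average gave Fkbp4 0.20 and Hspa4l -0.25 between the KO subsets. Probe sets without a suffix gave Cct3 0.068, Dnajc6 -1.18 and Fkbp4 0.99 against control in NK1.1+ KO cells, and Fkbp4 1.82 and Dnajc24 0.013 between the subsets. Of 612 values of described members under alternatives, 534 kept sign and side of the threshold and 26 changed sign. Of those 26, 19 were in members not called, among them Hspa8, Hspa9, Hspb11 and Hsph1 between the KO subsets with centring. Shares of all genes at the same settings, higher and lower, were 6.93% and 4.38% at the 75th percentile, 4.69% and 2.36% with the offset, 16% and 14.8% at 1.5-fold, 3.77% and 1.52% at 3-fold and 5.67% and 3.76% with the average in NK1.1− KO against control cells. In NK1.1+ KO against control cells they were 5.61% higher with the average, 12.6% with quantile normalization, 13.7% with centring and 17% at 1.5-fold, and 17.2% lower with centring and 11.4% at 3-fold. Between the KO subsets they were 4.63%, 3.39% and 3.34% higher at the 75th percentile, with the offset and with the average, and 13.7%, 35.5% and 8.62% lower with centring, at 1.5-fold and at 3-fold. Measured members in the 3 comparisons, in the order used here, were 73, 72 and 75 in the report and with the offset, centring and other folds. They were 60, 59 and 59 at the 75th percentile, 72, 70 and 72 with the average and 75, 74 and 75 with quantile normalization. Beyond the alternatives' own construction, the cause was not tested. Values near the level carry the least signal over background.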
